A study of Homo sapiens with 6 samples.

Results

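The 39 protein-coding genes of the 4 human HOX clusters were followed in cells labelled MG63, an established human osteosarcoma line, after knockdown of FUBP1. They were taken from a deposited table of 58735 genes as every protein-coding row whose name is HOX, a cluster letter from A to D and a number, which gave 11 genes of HOXA on chromosome 7, 10 of HOXB on chromosome 17, 9 of HOXC on chromosome 12 and 9 of HOXD on chromosome 2. RNA of 3 samples transfected with siRNA against FUBP1 (siFUBP1) was compared with RNA of 3 samples transfected with a negative control (siMock), 48 h after transfection in both groups. All 6 samples are labelled as this 1 line, and the labels name no other treatment or genetic change in either group. FUBP1 is a nuclear protein that binds single-stranded DNA and RNA and acts in transcription and splicing. The study lists 3 siRNAs against FUBP1, and which of them was sequenced is not given in the sources used here. Whether the samples of a group came from separate cultures is not given either, so the p-values measure the spread between these samples, which may be technical.

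HOX genes encode homeodomain transcription factors that give cells of the embryo their position along the body axis and, for the last genes of a cluster, along the limb. The genes of a cluster lie on the same strand and are numbered from its 3′ end, whose genes are switched on early and towards the head, to its 5′ end, whose genes are switched on late and towards the tail and the tips of the limbs. Genes with the same number in different clusters are paralogs descended from 1 ancestral gene. Adult cells and tumour lines keep part of this positional code, which Polycomb complexes hold off and Trithorax complexes hold on, and HOX proteins bind DNA together with the TALE cofactors PBX, MEIS and PKNOX.

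Total counts lay between 16309900 and 17484313 per sample, and 16116 genes passed edgeR's filter on low counts and were tested. CPM below means counts scaled to the TMM-adjusted library size, FPKM is the deposited value scaled to library size and gene length, and errors are SDs over the 3 samples of a group unless an SE is named. FUBP1 itself had 3872, 4331 and 4282 counts in siMock and 749, 752 and 926 in siFUBP1, a log2 fold change of -2.44 (SE 0.09, adjusted p = 1.9e-17 in edgeR's quasi-likelihood F test, adjusted after Benjamini-Hochberg), so the labels held for the targeted gene. Markers of the osteoblast lineage were mostly absent from these libraries: of 9, only COL1A1 and RUNX2 passed the filter, while COL1A2 and IBSP were at 0 in all 6 samples and ALPL, SP7 and SPARC had a mean of at most 2 counts. BGLAP and SPP1, with means of 6.67 and 8.83 counts, were not tested either. COL1A1 fell from 113 to 45.5 CPM (log2 fold change -1.31) and RUNX2, the master regulator of osteoblasts, rose from 0.448 to 4.05 CPM (3.15). Summed over the list, the osteoblast markers gave 109 to 119 CPM in siMock and 49.7 to 52.5 CPM in siFUBP1. The 7 epithelial markers gave 2554 to 2930 CPM in siMock and 1379 to 1508 CPM in siFUBP1. Of these 7, 5 passed the filter, 2 did not, and 1 of the 2 had no count in any sample. Of the 5 tested, 3 fell (60%, against 30.1% of all genes tested) and 2 did not pass the test. In siMock the sum came mostly from KRT8 and KRT18, so it reflects these keratins more than the whole list. KRT8, a keratin of simple epithelia, fell from 1989 to 993 CPM, and CLDN4, a tight junction protein, fell as well (-1.36). Of 6 blood and 5 endothelial markers, 1 each passed the filter, and each list summed to at most 5.18 CPM in any sample. KRT18, the partner of KRT8, had 705 ± 42 CPM in siMock, and PRRX1, a gene of limb and skeletal mesenchyme, had no count in any sample. The osteoblast markers thus do not bear out the label, the identity of the line was not tested and is in doubt, and the HOX levels below describe these libraries as labelled. The part of the marker shifts in the HOX results was not tested.

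Of the 39 HOX genes, 27 passed the filter, 12 did not, and 4 of these 12 (HOXB1, HOXD1, HOXD12 and HOXD13) had no count in any sample. A gene is named here as called lower or higher when its adjusted p was below 0.05 and its log2 fold change was beyond 1 in size. HOXC4, HOXC8, HOXB3 and HOXA3 were called lower, 4 of 27 (14.8%), where 9.13% of all genes tested were called lower. HOXB9 and HOXB4 were called higher, 2 of 27 (7.41%), where 8.16% of all genes were called higher. With no threshold on the fold change, 10 members fell (37.0%) where 30.1% of all genes did, and 7 rose (25.9%) where 30.1% of all genes did. The siMock and siFUBP1 values did not overlap for 17 members (63.0%), against 63.9% of all genes tested. All of these shares lie near the background, and the counts are no result about HOX genes as a group. The members were spread in both directions, with a median log2 fold change of -0.00 over the 27 and of 0.00 over all genes, and a median size of 0.54 against 0.44 over all genes. In RNA from whole cultures, fewer cells that express a gene and less of its RNA per cell cannot be told apart.

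**Figure D1:**
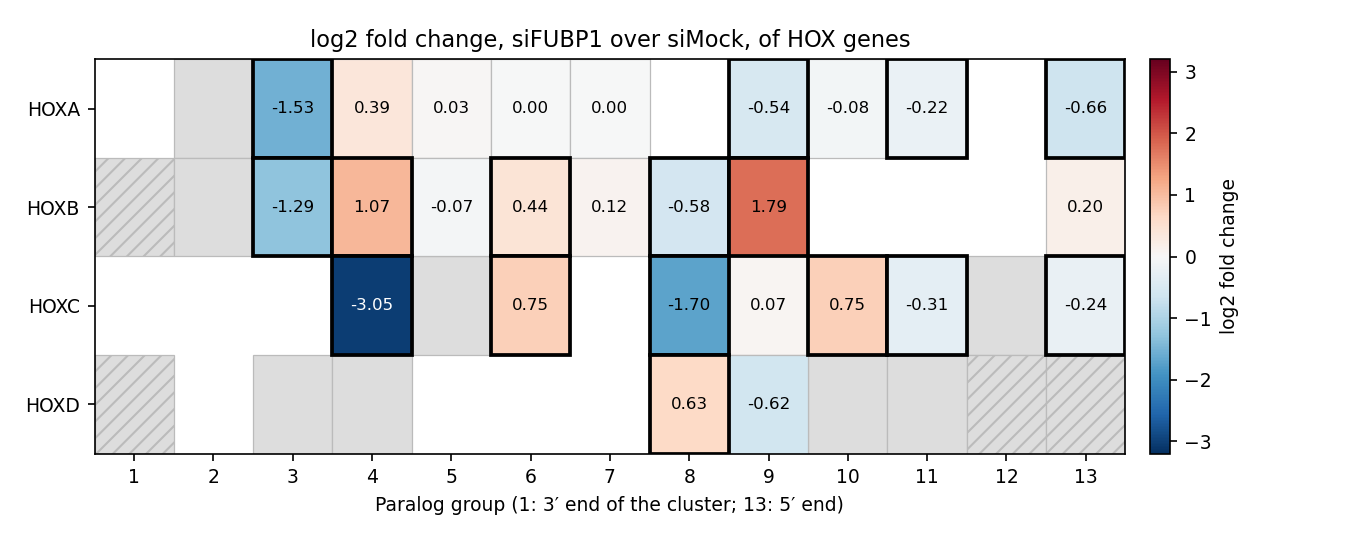
Log2 fold change of siFUBP1 over siMock for HOX genes, arranged by cluster (rows) and paralog group (columns). Black frames mark an adjusted p below 0.05, plain grey marks genes not tested, hatched grey marks the 4 genes with no count, and white marks positions with no value shown. The darkest blue is HOXC4 (-3.05) and the darkest red is HOXB9 (1.79).

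Measured per length, the highest levels were those of 5′ genes of HOXC and HOXA, with HOXB7 at rank 5 as the highest of its cluster in siMock. HOXC10, a gene of the lumbar region and hindlimb, had the highest level in siMock with 25.9 ± 1.4 FPKM (n = 3), followed by HOXC13, a regulator of hair and nail keratins, with 21.7 ± 1.3, HOXC9 with 17.4 ± 0.48 and HOXA11, a gene of the forearm and lower leg, with 16.4 ± 1.7. In siFUBP1 the order changed below HOXC10, which stood at 43.9 ± 1.7 FPKM. HOXB9 moved from rank 10 of 39 to rank 2 with 24.0 ± 3.3 FPKM, and HOXC4 moved from rank 13 to rank 25 with 0.508 ± 0.19 FPKM. The genes at the 3′ ends of HOXA, HOXB and HOXD were low: HOXA2 had 0.159 ± 0.12 FPKM in siMock, HOXB2 0.0609 ± 0.040, and HOXB1 and HOXD1 were at 0. HOXD genes were also low, with HOXD9 at 1.63 ± 0.29 FPKM and HOXD8 at 0.840 ± 0.10 in siMock as the 2 highest of the cluster.

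**Figure D2:**
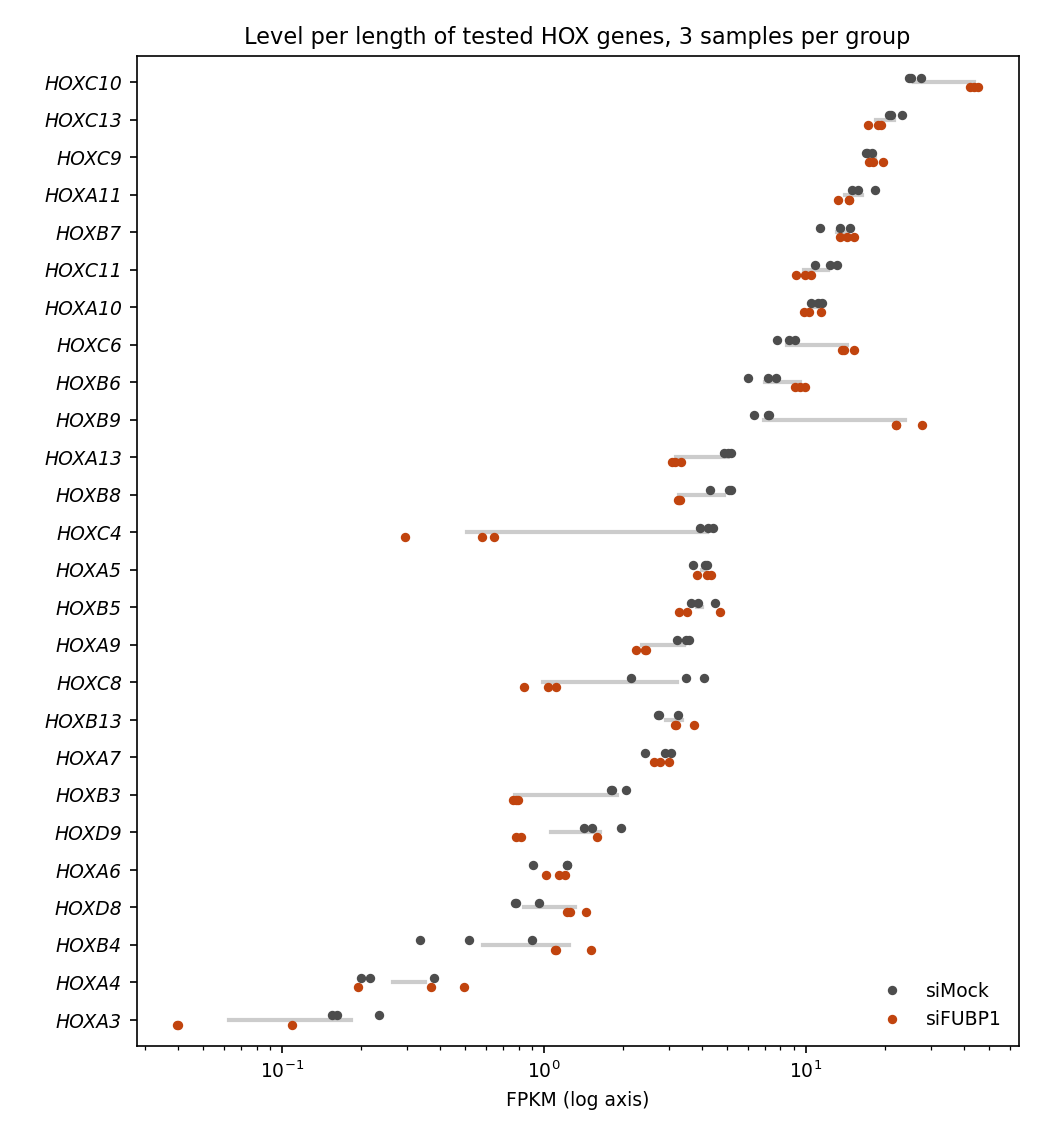
FPKM of tested HOX genes on a log axis, 3 siMock samples (grey) and 3 siFUBP1 samples (orange) per gene, with a bar joining the group means, sorted by the siMock mean. HOXC4 and HOXB9 show the longest bars, to the left and to the right, and HOXA5, HOXA6 and HOXA7 show almost none.

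HOXC4 (ENSG00000198353, chromosome 12, 54016931 to 54056030, plus strand, GRCh38) encodes the paralog group 4 protein of the HOXC cluster and is the gene at its 3′ end. It had 191, 184 and 190 counts in siMock and 27, 14 and 31 in siFUBP1. Every siFUBP1 sample lay far below every siMock sample. The level went from 11.6 ± 0.68 to 1.39 ± 0.52 CPM, 12.1% of siMock, and the log2 fold change was -3.05 (SE 0.21, adjusted p = 3.67e-12 by edgeR with Benjamini-Hochberg adjustment). HOXC4 was called lower in all 15 alternative fits, with log2 fold changes from -3.26 to -1.79, the smallest being on the log2(FPKM + 1) scale, which understates the change of low genes.

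HOXC5, the next gene towards the 5′ end, was too low to be tested. Its counts were 6, 8 and 10 in siMock and 2, 0 and 2 in siFUBP1. The groups did not overlap, and the ratio of the summed counts, scaled for library size, was 0.158 (95% exact interval 0.0398 to 0.459, counting error only). In the reference of promoters by RefSeq (GRCh38.p14), HOXC4 and HOXC5 are given the same start, and the 250 bases before it are listed for both. The counted HOXC5 gene begins further downstream, at 54032853, while HOXC4 begins at 54016931. The window thus does not lie directly before the counted HOXC5 gene, and whether it serves that gene was not tested. The sequence is shown because it is the only promoter that 2 members share in the RefSeq reference, which holds 20 of the 39 members. It lies at chr12:54016638-54016887 on the plus strand, its GC content is 50.8%, it holds 14 CG dinucleotides, and the capitals mark its only match to TAAT, the core that homeodomains bind, searched on both strands (TAAT or ATTA) and found 109 bases before the start:
HOXC4 and HOXC5: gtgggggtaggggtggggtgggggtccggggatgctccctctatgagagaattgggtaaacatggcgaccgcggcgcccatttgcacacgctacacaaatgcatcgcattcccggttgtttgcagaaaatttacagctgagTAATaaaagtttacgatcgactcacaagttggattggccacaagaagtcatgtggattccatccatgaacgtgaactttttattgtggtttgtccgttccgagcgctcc
A match to these letters was present in 47.4% of 35116 promoter windows of the same length, so it is a description and not a site.

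HOXC6 (ENSG00000197757, chromosome 12, 53990624 to 54030823, plus strand), a paralog group 6 gene of the thoracic region, moved the other way. Its counts were 532, 470 and 482 in siMock and 828, 944 and 870 in siFUBP1, with no overlap. The level rose from 30.4 ± 2.5 to 51.1 ± 2.9 CPM, a log2 fold change of 0.75 (SE 0.09, adjusted p = 1.03e-07 by edgeR with Benjamini-Hochberg adjustment). HOXC4 and HOXC6 share 484 exonic bases on the same strand in GENCODE 29, 17.8% of the exonic length of HOXC4 and 13.7% of that of HOXC6, so reads in those bases could have been given to either gene or to neither. The row of HOXC5 shares exonic bases with neither of them. A second annotated entry of the same name, ENSG00000273046, a processed transcript, shares 305 bases with HOXC4 and with HOXC6 and 1081 with HOXC5, and it had no count in any sample. The ratio of HOXC6 to HOXC4 counts lay between 2.54 and 2.79 in siMock and between 28.1 and 67.4 in siFUBP1. Summed over HOXC4, HOXC5 and HOXC6, the level went from 42.4 ± 3.1 to 52.6 ± 2.4 CPM, a log2 ratio of 0.31. The sum, of which HOXC6 is the larger part, thus went the other way from HOXC4, and how far the counting of shared exons bears on the fall of HOXC4 was not tested.

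HOXC8 (ENSG00000037965, chromosome 12, 54009106 to 54012362, plus strand) patterns the thoracic skeleton and acts in cartilage and osteoblasts. The gene lies within the annotated span of HOXC6 and shares no exonic base with any gene. Its counts were 67, 132 and 104 in siMock and 27, 34 and 37 in siFUBP1. The siMock samples were spread, with replicate 1 lowest, and all of them lay above the siFUBP1 samples. The level fell from 6.18 ± 1.9 to 1.89 ± 0.27 CPM, a log2 fold change of -1.70 (SE 0.24, adjusted p = 9.78e-07 by edgeR with Benjamini-Hochberg adjustment). It was called lower in all 15 alternative fits, with values from -1.93 to -1.06.

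HOXC9 and HOXC10, the next genes towards the 5′ end, differed from each other. HOXC10 (ENSG00000180818) had 1058, 1012 and 916 counts in siMock and 1677, 1772 and 1871 in siFUBP1. The highest HOX level of these cells thus rose further, from 61.0 ± 3.3 to 103 ± 4.0 CPM, a log2 fold change of 0.75 (SE 0.08, adjusted p = 7.48e-09 by edgeR with Benjamini-Hochberg adjustment). HOXC9, from 29.5 ± 0.82 to 31.0 ± 1.9 CPM, did not pass the test (0.07, 95% confidence interval -0.12 to 0.26). At the 5′ end, HOXC11, which acts in the hindlimb, fell from 40.0 ± 3.8 to 32.4 ± 2.1 CPM (-0.31, SE 0.10) and HOXC13 fell from 53.2 ± 3.3 to 45.2 ± 2.8 CPM (-0.24, SE 0.09), both changes being small. HOXC11 no longer passed the test without siMock replicate 2 (-0.24), and HOXC13 no longer passed in 5 of 15 alternative fits. These were the fits without siMock replicate 1 (-0.19) or siFUBP1 replicate 1 (-0.18), with upper quartile scaling (-0.19), without a filter on low counts (-0.22) and with the GC and length correction (-0.15). HOXC12, between them, reached 6 counts in siMock and 4 in siFUBP1 at most and was not tested.

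In the HOXB cluster the largest change was that of HOXB9 (ENSG00000170689, chromosome 17, 48621159 to 48626356, minus strand), a gene of thoracic patterning and mammary gland development. It had 270, 317 and 296 counts in siMock and 972, 1251 and 1002 in siFUBP1. Each siFUBP1 sample stood above 3 times the highest siMock count. The level rose from 18.1 ± 1.3 to 62.4 ± 8.5 CPM, 3.45-fold, with a log2 fold change of 1.79 (SE 0.10, adjusted p = 9.98e-14 by edgeR with Benjamini-Hochberg adjustment). HOXB9 shares no exonic base with another gene, and it was called higher in all 15 alternative fits (1.65 to 1.85).

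HOXB8, which adjoins HOXB9 on the 3′ side, fell. Its counts were 173, 152 and 168 in siMock and 116, 116 and 118 in siFUBP1, a log2 fold change of -0.58 (SE 0.15, adjusted p = 0.00146 by edgeR with Benjamini-Hochberg adjustment). The ratio of HOXB9 to HOXB8 counts lay between 1.56 and 2.09 in siMock and between 8.38 and 10.8 in siFUBP1. The 3′ ends of the 2 genes are 9.78 kb apart. On the 5′ side, 104 kb away, HOXB13, a prostate and hindgut gene, had 10.2 ± 1.0 CPM in siMock and 11.7 ± 1.1 in siFUBP1 and did not pass the test (0.20, 95% confidence interval -0.08 to 0.48).

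HOXB3 and HOXB4, adjacent genes of the hindbrain and neck region, moved in opposite directions. HOXB3 (ENSG00000120093, chromosome 17, 48548870 to 48604912, minus strand) had 253, 231 and 215 counts in siMock and 99, 103 and 100 in siFUBP1. It fell from 14.3 ± 1.1 to 5.84 ± 0.11 CPM, a log2 fold change of -1.29 (SE 0.14, adjusted p = 1.14e-08 by edgeR with Benjamini-Hochberg adjustment), and the 3 siFUBP1 samples were almost equal. HOXB4 (ENSG00000182742, chromosome 17, 48575513 to 48580111, minus strand), known for expanding blood stem cells, had 32, 58 and 20 counts in siMock and 71, 99 and 73 in siFUBP1. Here the siMock samples were spread widely, and the groups did not overlap. The log2 fold change of HOXB4 was 1.07 (SE 0.27, adjusted p = 0.00135 by edgeR with Benjamini-Hochberg adjustment), and it was no longer beyond 1 when replicate 1 (0.98) or 3 (0.80) of siMock or replicate 2 of siFUBP1 (0.91) was left out. HOXB4 also shares 482 exonic bases with AC103702.1 on the same strand. The exons of HOXB3 share 159 bases with HOXB4 and 433 with HOXB6 on the same strand, and HOXB6 rose too, from 18.4 ± 2.3 to 24.9 ± 1.1 CPM (0.44, SE 0.11). Reads of HOXB3 in those bases could have been given to either gene or to neither.

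HOXB5 and HOXB7 did not pass the test. HOXB5 had 8.26 ± 0.95 CPM in siMock and 7.88 ± 1.6 in siFUBP1 (-0.07, 95% confidence interval -0.40 to 0.27), and HOXB7 had 20.3 ± 2.7 and 22.1 ± 1.3 CPM (0.12, -0.11 to 0.35). HOXB2 reached 4 counts in siMock and 3 in siFUBP1 at most, and HOXB1 had none, which allows up to 0.192 CPM in the shallowest sample (3 counts, counting error only).

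**Figure D3:**
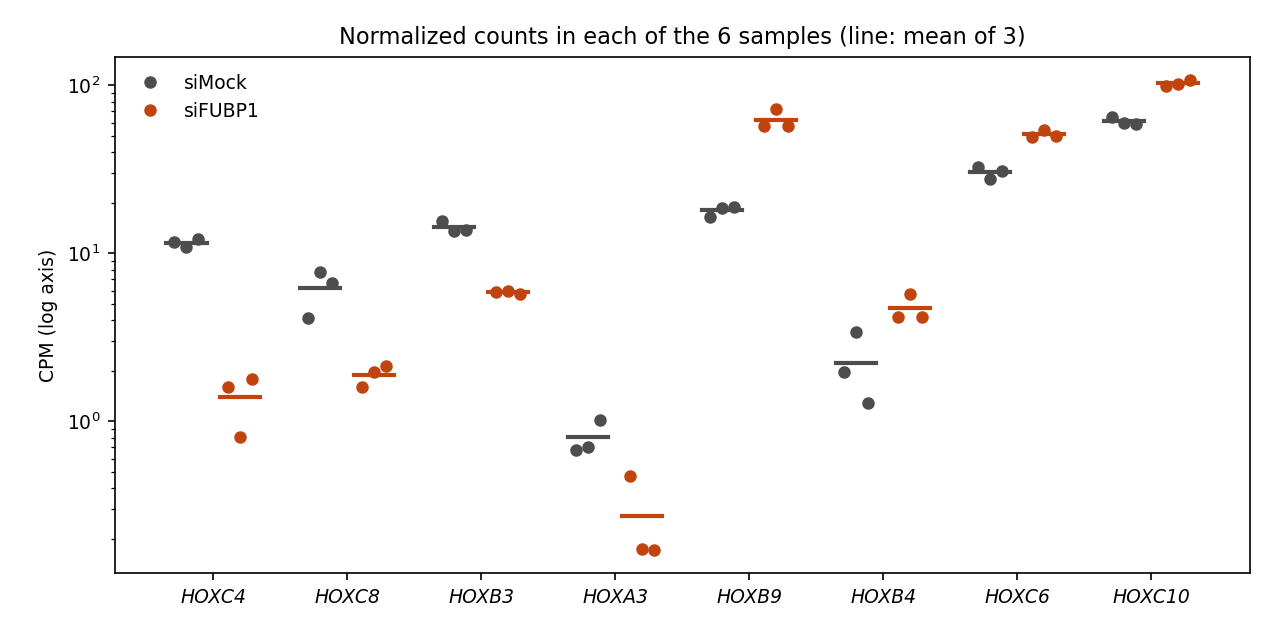
CPM in each of the 6 samples, on a log axis, for the 6 called HOX genes and for HOXC6 and HOXC10, siMock in grey and siFUBP1 in orange, with a line at the mean of 3. The groups do not overlap for any of the 8 genes, and HOXC8 and HOXB4 show the widest spread within siMock.

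The HOXA cluster changed least in its middle. HOXA5, which acts in the lung and at the neck, HOXA6 and HOXA7 had log2 fold changes of 0.03, -0.00 and -0.00, whose sign is within the error, and their 95% confidence intervals ran from -0.29 to 0.36, from -0.66 to 0.66 and from -0.33 to 0.33. HOXA7 shares 1507 of its 2411 exonic bases with HOXA-AS3 on the opposite strand, and whether strand was used in counting is not given in the sources used here. HOXA10, a gene of the uterus and the upper leg, had 41.5 ± 2.0 CPM in siMock and 39.2 ± 2.9 in siFUBP1 and did not pass the test (-0.08, 95% confidence interval -0.27 to 0.10). HOXA4 reached 11 counts in siMock and 15 in siFUBP1 at most, with 6 as its lowest count in both groups, and did not pass it either (0.39, 95% confidence interval -0.64 to 1.42).

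At the 5′ end of the HOXA cluster genes fell. HOXA13 (ENSG00000106031), which patterns the digits, had 436, 424 and 407 counts in siMock and 268, 279 and 299 in siFUBP1, with no overlap and little spread. It fell from 25.9 ± 0.89 to 16.4 ± 0.67 CPM, a log2 fold change of -0.66 (SE 0.10, adjusted p = 3.87e-06 by edgeR with Benjamini-Hochberg adjustment). HOXA9, a gene of blood progenitors and myeloid leukaemia, had 174, 168 and 172 counts in siMock and 116, 128 and 131 in siFUBP1. The fall of HOXA9 was of the same order (-0.54, SE 0.14). HOXA11 had 697, 628 and 550 counts in siMock and 575, 586 and 537 in siFUBP1, and its fall was small (-0.22, SE 0.10, adjusted p = 0.0481 by edgeR with Benjamini-Hochberg adjustment), and it passed the test in only 5 of 15 alternative fits.

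HOXA3 (ENSG00000105997, chromosome 7, 27106184 to 27152581, minus strand), which acts in the thymus and parathyroid, was close to the limit of counting with 11, 12 and 16 counts in siMock and 8, 3 and 3 in siFUBP1. Its log2 fold change was -1.53 (SE 0.53, adjusted p = 0.0141 by edgeR with Benjamini-Hochberg adjustment), and it no longer passed the test when replicate 3 of siMock (-1.33) or replicate 2 or 3 of siFUBP1 (-1.29 for each) was left out. HOXA2, its neighbour on the 3′ side, was not tested, and its highest counts were 11 in siMock and 3 in siFUBP1.

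The HOXD cluster was nearly silent, and 7 of its 9 genes were not tested. HOXD8 had 34, 35 and 40 counts in siMock and 55, 66 and 58 in siFUBP1, and it rose (0.63, SE 0.23, adjusted p = 0.0224 by edgeR with Benjamini-Hochberg adjustment), although not without siMock replicate 1 (0.58), siMock replicate 2 (0.58) or siFUBP1 replicate 2 (0.56). HOXD9, its neighbour on the 5′ side, had 47, 63 and 42 counts in siMock and 25, 52 and 27 in siFUBP1, with overlapping groups and an adjusted p of 0.0569 by edgeR with Benjamini-Hochberg adjustment (-0.62). It passed the test with the fold change of -1.02 when siFUBP1 replicate 2 was left out and with -0.72 when siMock replicate 3 was left out. HOXD10, a limb gene, had 7, 8 and 7 counts in siMock and 1, 0 and 0 in siFUBP1. The ratio of its summed counts was 0.0430 (95% exact interval 0.00104 to 0.266, counting error only), and HOXD10 and HOXC5 were the 2 members that were called only when the filter on low counts was dropped. HOXD10 shares 452 exonic bases with HOXD11, whose highest counts were 10 in siMock and 4 in siFUBP1. HOXD3 and HOXD4 had at most 6 counts in any sample.

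Along the clusters, some genes that rose lay next to genes that fell. Of the 23 pairs of tested genes that follow each other in a cluster, 6 pairs passed the test in opposite directions and 2 in the same direction, HOXA11 with HOXA13 and HOXC11 with HOXC13. The other 15 pairs held a gene that did not pass. No share of such pairs over all genes was computed, so these counts are no result about neighbouring HOX genes. Among the opposite pairs were HOXB3 and HOXB4, HOXB8 and HOXB9, HOXC4 and HOXC6, HOXC6 and HOXC8, and HOXC10 and HOXC11. Of these, HOXC4 and HOXC6 share 484 exonic bases on the same strand, and HOXB3 and HOXB4 share 159. Reads in those bases could have been given to either gene or to neither. The step from HOXC4 to HOXC6 was the largest, 3.80 on the log2 scale between genes whose 3′ ends are 25.2 kb apart. The step from HOXC6 to HOXC8 was -2.45 over 18.5 kb.

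**Figure D4:**
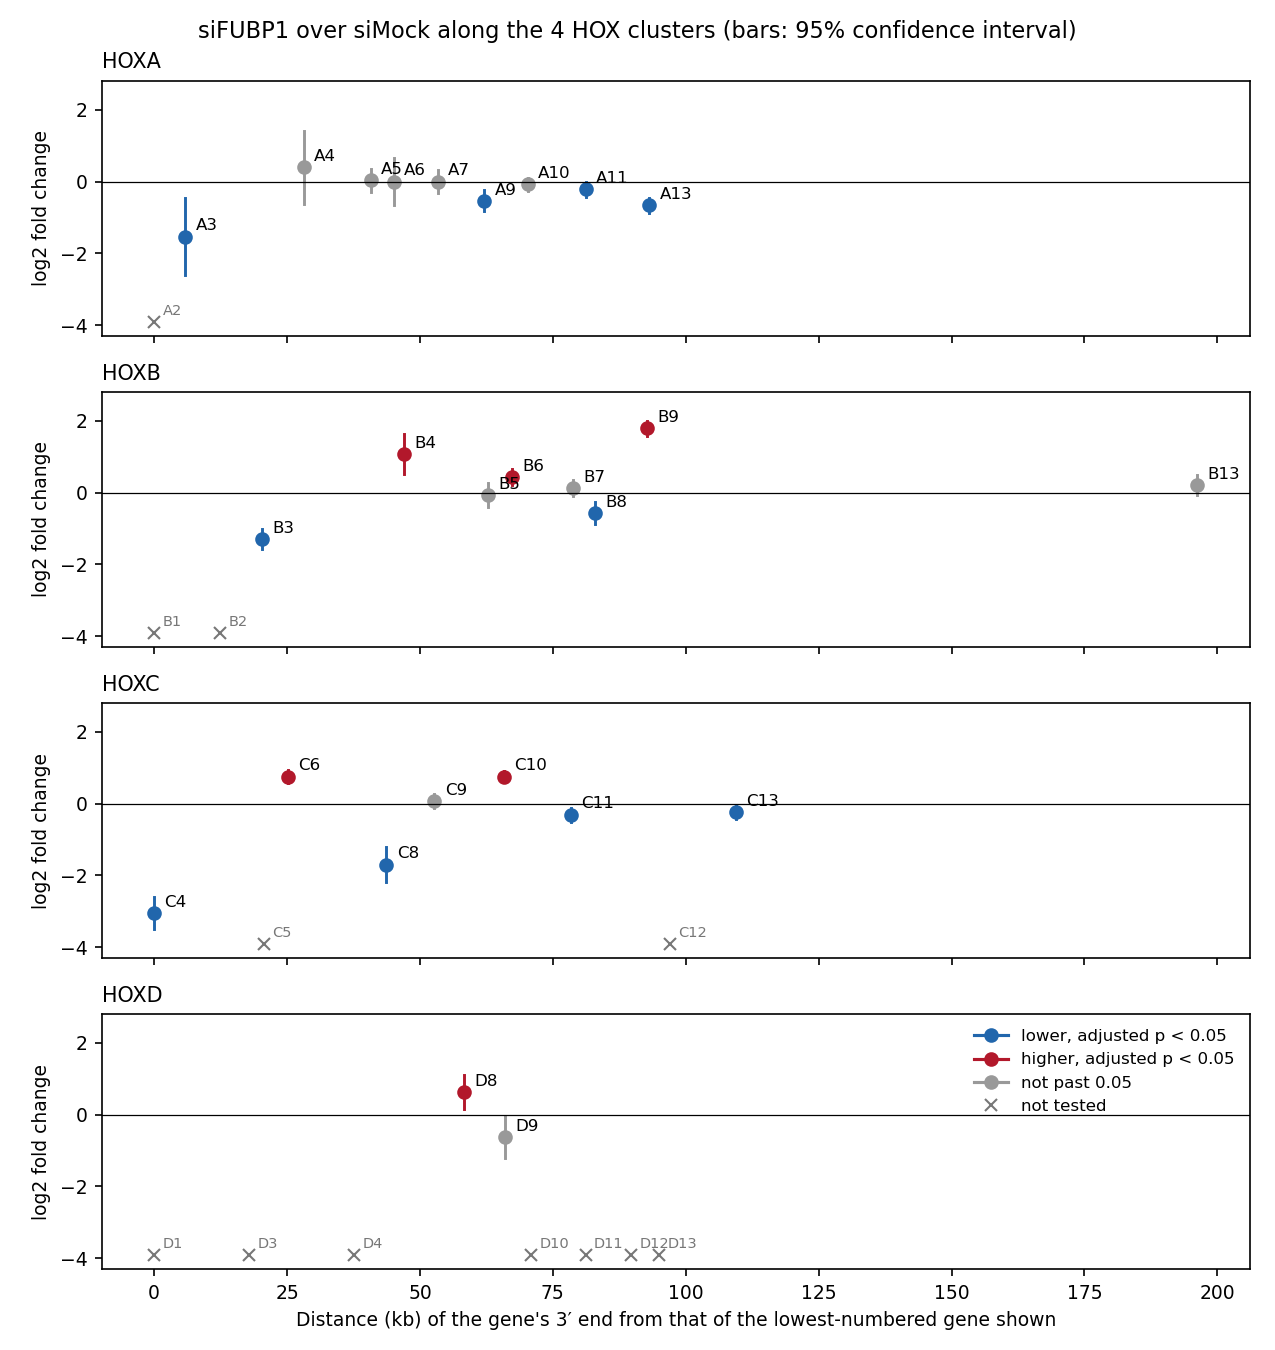
Log2 fold change with its 95% confidence interval against the distance of each gene's 3′ end from that of the lowest-numbered gene shown for its cluster, in kb, with 1 panel per cluster. Blue genes fell and red genes rose at an adjusted p below 0.05, grey genes did not pass, and crosses at the foot of a panel are genes not tested. Blue and red points follow each other closely in HOXB and HOXC, and the middle of HOXA lies at 0.

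Paralogs shared a direction in some groups and not in others. Both tested genes of paralog group 3 fell (HOXA3 and HOXB3), as did both of group 11 (HOXA11 and HOXC11), and in group 13 HOXA13 and HOXC13 fell while HOXB13 did not pass the test. In group 6 HOXB6 (0.44) and HOXC6 (0.75) both rose and HOXA6 did not pass the test. In group 4 HOXC4 fell and HOXB4 rose, in group 8 HOXB8 and HOXC8 fell and HOXD8 rose, and in group 9 HOXA9 fell and HOXB9 rose, with HOXC9 and HOXD9 not past the test. None of the tested genes of groups 5 and 7 passed it.

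Summed over all 39 genes, HOX RNA went from 476 ± 17 CPM in siMock to 535 ± 20 CPM in siFUBP1. The HOXB cluster held 102 ± 2.0 CPM in siMock and 146 ± 7.1 in siFUBP1, and its share of all HOX counts went from 21.4 ± 0.33% to 27.4 ± 0.41%. HOXB9 accounted for this difference: without it the cluster summed to 83.9 ± 3.3 CPM in siMock and 84.0 ± 1.4 in siFUBP1. The HOXA cluster went from 135 ± 6.3 to 116 ± 4.6 CPM, and from 28.4 ± 0.36% to 21.8 ± 0.25% of HOX counts. HOXC went from 233 ± 8.7 to 266 ± 8.6 CPM with HOXC10 and from 172 ± 5.4 to 163 ± 7.8 CPM without it. HOXD, at 6.20 ± 0.59 and 5.80 ± 1.2 CPM, overlapped between the groups.

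**Figure D5:**
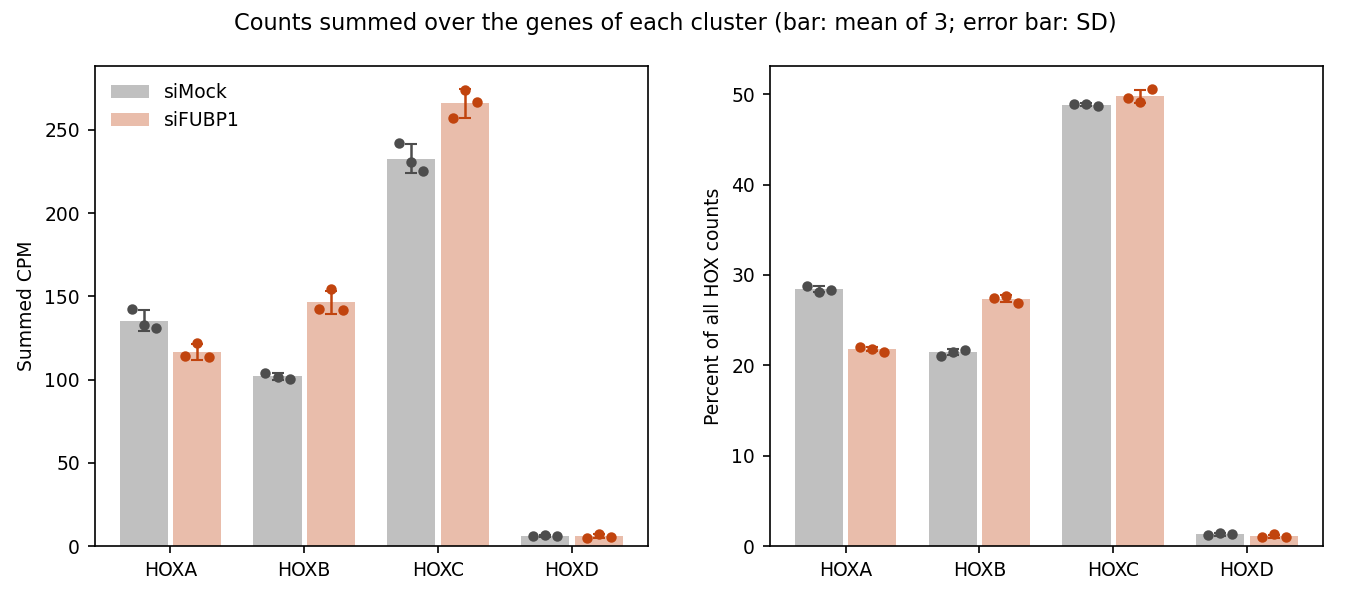
Counts summed over the genes of each cluster, as CPM (left) and as a percent of all HOX counts of the sample (right). Bars are means of 3 samples, error bars are SDs and points are the samples, siMock in grey and siFUBP1 in orange. HOXB stands higher and HOXA lower in siFUBP1 on both scales, and HOXD is near 0 in both groups.

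Noncoding genes within the clusters were measured from the same libraries. A list of 24 of them was in the table, 13 were tested, 4 rose (30.8%) and 1 fell (7.69%), where 30.1% of all genes tested moved in each direction. The list leaves out some tested genes: of all 17 non-member genes tested inside the clusters, 5 rose (29.4%) and 2 fell (11.8%). Of these 17, 2 were called higher (11.8%, against 8.16% of all genes tested) and none lower. On the list only HOXC13-AS was called, an antisense RNA that shares 172 bases with HOXC13 on the opposite strand. It had 103, 97 and 77 counts in siMock and 228, 262 and 230 in siFUBP1 (5.65 ± 0.69 to 13.9 ± 1.0 CPM), while HOXC13 itself fell. The other called gene, not on the list, was the lincRNA LINC02086 in HOXB, with 17, 16 and 14 counts in siMock and 35, 44 and 30 in siFUBP1 (1.13). HOXA11-AS, which shares 717 bases with HOXA11, rose from 13.9 ± 2.5 to 24.6 ± 2.5 CPM (0.82), HOXB-AS3 rose (0.39), and HOTAIR, a HOXC transcript studied for its part in silencing HOXD, rose slightly from 21.2 ± 0.60 to 25.4 ± 3.3 CPM (0.26). HOXB-AS4 fell from 4.05 ± 0.26 to 2.23 ± 0.23 CPM (-0.86). Where strand was not used in counting, reads in the bases that a gene shares with its antisense partner cannot be told apart.

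Outside the clusters, within 250 kb on either side, 19 genes were tested, 6 were called lower (31.6%, against 9.13% of all genes tested) and none was called higher. With no threshold on the fold change, 7 of the 19 fell (36.8%) and 6 rose (31.6%), where 30.1% of all genes moved in each direction. By cluster, 5 of the 10 around HOXC, 1 of the 3 around HOXD, none of the 5 around HOXB and not the 1 beside HOXA were called. The protein-coding ones were CALCOCO1, a coactivator and autophagy receptor, which fell from 87.3 ± 4.5 to 42.6 ± 1.0 CPM (-1.03), COPZ1, a coatomer subunit, which fell from 230 ± 12 to 114 ± 9.8 CPM (-1.01), and NFE2, an erythroid transcription factor, which fell from 7.0 ± 0.32 to 3.00 ± 0.48 CPM (-1.22). They lie 211, 245 and 236 kb from the outermost HOXC genes. Chosen after its values were seen, the lincRNA FLJ12825 begins 2.22 kb beyond the 3′ end of HOXC4 on the same strand and fell as HOXC4 did, from 1.75 ± 0.43 to 0.389 ± 0.23 CPM (-2.16, SE 0.43), with 36, 29 and 21 counts in siMock and 11, 4 and 5 in siFUBP1. The nearer protein-coding neighbour SMUG1, a DNA repair glycosylase 65.2 kb away, had 57.3 ± 3.8 and 53.6 ± 2.7 CPM and did not pass the test (-0.10), and CBX5, a heterochromatin protein, did not pass it either (-0.05).

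The cofactors of HOX proteins were expressed in both groups. Of 9 TALE genes 8 were tested, 2 rose and 2 fell (25% each, against 30.1% of all genes tested in each direction), and none was called. PBX2 rose from 56.4 ± 3.6 to 83.1 ± 4.0 CPM (0.56), MEIS2 rose (0.42), and PBX4 (-0.62) and PKNOX1 (-0.44) fell. Summed over the 9 genes, the level lay between 184 and 195 CPM in siMock and between 206 and 221 CPM in siFUBP1.

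Among the regulators of the clusters, where the same 30.1% of all genes in each direction is the background, 32 Polycomb genes were tested, 16 rose (50%) and 6 fell (18.8%), with a median log2 fold change of 0.21 where that of all genes was 0.00. PHC2, a subunit of Polycomb repressive complex 1, was the only one called and rose from 62.1 ± 2.2 to 150 ± 26 CPM (1.27). That is 1 of 32 called higher (3.1%), where 8.16% of all genes tested were called higher. Of the 24 tested Trithorax genes and H3K27 demethylases, 7 rose (29.2%) and 10 fell (41.7%, median -0.07). KDM6B, a demethylase that removes the Polycomb mark, was the only one called, rising from 26.8 ± 1.4 to 54.1 ± 11 CPM (1.01). That is 1 of 24 called higher (4.17%), again below the 8.16% of all genes tested. Of 13 architectural genes, CTCF and cohesin among them, 7 rose (53.8%) and 3 fell (23.1%, median 0.29), and none was called. In the retinoic acid pathway, which switches on the 3′ genes of the clusters in the embryo, 5 of 15 tested genes rose (33.3%) and 6 fell (40%, median -0.02). Those called, 2 of 15 (13.3%, against 9.13% of all genes called lower), were STRA6, the receptor for retinol uptake, which fell from 33.0 ± 4.4 to 7.48 ± 1.8 CPM (-2.14), and CRABP2, which carries retinoic acid to its nuclear receptor and fell from 7.73 ± 0.82 to 2.45 ± 0.35 CPM (-1.65). Of the other direct regulators, 9 were tested, 1 rose (11.1%) and 5 fell (55.6%, median -0.28), and CDX1, CDX2, CDX4 and EGR2 were not tested.

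Homeobox genes of the limb and skeleton that lie outside the clusters were compared in the same way. Of 36 such genes 24 were tested, 3 rose (12.5%) and 10 fell (41.7%), with a median log2 fold change of -0.47. The 4 called genes all fell: MEOX1, a somite gene, from 81, 81 and 82 to 6, 3 and 18 counts (-3.24), PRRX2, a gene of limb mesenchyme, from 3.51 ± 1.0 to 0.797 ± 0.39 CPM (-2.14), LHX2 from 6.25 ± 2.0 to 1.89 ± 0.62 CPM (-1.72) and DLX3, a gene of bone and teeth, from 2.47 ± 0.43 to 0.756 ± 0.16 CPM (-1.70). That is 4 of 24 (16.7%) where 9.13% of all genes tested were called lower. All of these lists were written with earlier results of these data known, and nothing is called particular to any of them.

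An siRNA guide can also lower transcripts that match its seed, bases 2 to 8, in the 3′ UTR. The 3 guides of the study are shown because each has matches among the HOX genes, with the seed in capitals:
FUBP1 RNAi#1 guide: uAAACUGAaugcgaacacc
FUBP1 RNAi#2 guide: uAAGAGGUuugucagcacc
FUBP1 RNAi#3 guide: uUUCUUCUaugaguugccg
The seed of RNAi#1 had a match in HOXC4 and in HOXD1 and in 17.7% of the 19684 genes with an annotated 3′ UTR. That of RNAi#2 had matches in HOXA13, HOXC5 and HOXC11 (11.2% of genes), and that of RNAi#3 in HOXA4, HOXB4, HOXB6, HOXC13 and HOXD13 (18.2%). The match in HOXC4 lies at bases 619 to 625 of its 825-base 3′ UTR, with the matched bases in capitals, and those in HOXA13 lie at bases 2418 to 2424 and 3133 to 3139 of 3834:
HOXC4: ctcagagctgtTCAGTTTg
HOXA13, first: ctaagaaacccACCTCTTg
HOXA13, second: cccacctctccACCTCTTg
Outside the seed, HOXC4 pairs with 1 further base of the RNAi#1 guide, 8 of 19 in all. HOXA13 and HOXC11, the 2 tested genes with a match to RNAi#2, both fell, although HOXC11 did not pass without siMock replicate 2. Among all genes tested 30.1% fell, and 2 genes are too few to be read against that share. Of the 4 tested genes with a match to RNAi#3, HOXC13 fell, HOXB4 and HOXB6 rose and HOXA4 did not pass the test. HOXC8, HOXB3 and HOXA3, which were called lower, hold no match to any of the 3 seeds. The part of the seeds in the falls of HOXC4, HOXA13, HOXC11 and HOXC13 was not tested.

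The clusters also encode microRNAs that pair with HOX transcripts. The mature sequences are shown because 8 members carry a match to their seed, which is in capitals:
hsa-miR-196a-5p: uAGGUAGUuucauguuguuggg
hsa-miR-196b-5p: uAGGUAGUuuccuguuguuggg
Both miR-196 forms share their seed, which had matches in the 3′ UTRs of HOXA5, HOXA7 (4 sites), HOXA9 and HOXC8 (2 sites each), HOXB1, HOXB6, HOXB7 and HOXB13, and in 6.08% of all genes. Of the 7 tested members with a miR-196 match, HOXA9 and HOXC8 fell, HOXB6 rose and 4 did not pass the test. The sites of HOXC8, the called member, lie at bases 128 to 134 and 864 to 870 of its 981-base 3′ UTR:
HOXC8, first: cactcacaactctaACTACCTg
HOXC8, second: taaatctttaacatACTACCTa
The libraries were made from poly-A RNA and do not measure mature microRNAs. Of the microRNA genes, MIR196A1 had a mean of 9.33 counts and did not pass the test. MIR196A2, with a mean of 4.5 counts, was not tested, and MIR196B had none. The seed of miR-10a, another microRNA of the clusters, was searched too. It had matches in 3 members, the called HOXA3 and HOXB3 among them, and in 10.6% of all genes. The part of these microRNAs in the changes was not tested.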

How the data were processed

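RNA-seq libraries of poly-A RNA from 3 siMock and 3 siFUBP1 samples of MG63 cells were analysed. The authors deposited 1 table with raw read counts per gene in 6 count columns, with FPKM values that they scaled to gene length and library size, and with the gene length itself, replicates not being pooled. The submitters' processing notes name HISAT2 2.0.5, StringTie 1.3.3b, featureCounts 1.5.0-p3 and DESeq2 1.16.1, and whether strand was used in counting is not given in the sources used here. Other columns hold the authors' own comparison (group means, fold changes and p-values) and were not used. All 58735 gene rows match GENCODE 29 on GRCh38 in identifier, start and end. No replicates were identical, with a chi-square per gene of 5.79 to 9.38 within groups.

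The deposited counts were tested with edgeR 4.0.16 in R 4.3.3 (filterByExpr, TMM, robust quasi-likelihood fit, F test, group as the only term), and p-values were adjusted after Benjamini-Hochberg across all 16116 tested genes. Fitted fold changes use edgeR's prior count of 0.125. A two-sided exact permutation test of 3 against 3 samples cannot go below 0.1 and was not used. Alternatives were other scalings, filters and thresholds, a correction for GC content and length, a replicate block, DESeq2 1.42.0, limma 3.58.1 on the FPKM values and leaving out each sample. The code was tested on simulated counts. Named are the HOX genes, FUBP1, the called genes of 8 gene lists and the called protein-coding genes within 250 kb of a cluster, and any other gene was chosen after its values were seen. The HOX members, the lists and the 4 marker lists were chosen with earlier results of these data known. Guide and site sequences come from the study's primer and siRNA listing and GENCODE 29, promoters and microRNAs from RefSeq (GRCh38.p14). A few genes that this rule names are not reported here, although they are part of the counts.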

Additional observations from a re-analysis of the deposited data

How the results depend on the processing

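Of 402 values of HOX genes recomputed under alternatives, 349 kept their direction and their side of the threshold, 22 no longer passed it, 4 newly passed and 27 changed sign. The 402 include the sum of HOXC4, HOXC5 and HOXC6, which was not tested. It was set against HOXC4, as a change of sign, and against HOXC6, as the same direction. HOXC4, HOXC8 and HOXB9 were called in all 15 alternative fits and HOXB3 in 14. On the log2(FPKM + 1) scale, 2 HOX genes were called lower and 1 higher, and 1050 of all genes (588 lower, 462 higher), 6 list genes and 1 flanking gene were called. Among genes averaging 50 counts or more, 1662 genes were called (931 lower, 731 higher), fewer genes being tested. With no threshold on the fold change the counts were 10 HOX genes lower and 7 higher, 9695 genes (4851 lower, 4844 higher), 88 list genes and 13 flanking genes. Sign changes concerned values near 0, apart from HOXC4 when summed with its neighbours. HOXA5 was -0.10 under the GC and length correction. HOXA6 was 0.040 with upper quartile scaling, 0.0043 and 0.011 on the log2(FPKM + 1) and log2(FPKM + 0.1) scales, 0.012 without a filter and 0.094 under the GC and length correction. HOXA7 was 0.042 with upper quartile scaling, 0.0088 and 0.013 on those FPKM scales, 0.014 without a filter and 0.0032 among genes averaging 50 counts or more, and HOXB7 was -0.0084 under the GC and length correction. HOXC4 summed with HOXC5 and HOXC6 gave 0.31. HOXB13 passed the test only under the GC and length correction (0.33). The cause of these shifts was not tested. Leaving out 1 sample gave 3 to 4 HOX genes lower, 1 to 3 higher (1 without siMock replicate 1, siMock replicate 3 or siFUBP1 replicate 2, and 3 without siFUBP1 replicate 3), 2775 to 3059 genes called in all, 11 to 15 list genes and 5 to 6 flanking genes. It gave log2 fold changes of -0.023 to 0.092 for HOXA5, -0.14 to 0.064 for HOXA6, -0.092 to 0.067 for HOXA7 and -0.24 to 0.043 for HOXB5. Samples of the same replicate number deviated together little (correlations of -0.00469, 0.0171 and 0.123, against -0.0918 to 0.0743 for unlike numbers). Whether samples were handled in pairs is not given in the sources used here, and these correlations cannot settle it. With the replicate block 4 HOX genes were called lower, 2 higher and 2793 genes in all, HOXA6 was 0.0018 and HOXA7 0.0030, and HOXD9 passed the test (adjusted p = 0.0309 by edgeR with Benjamini-Hochberg adjustment). The 12 HOX genes that were not tested had too few counts for the filter used, so no test result is given for them at that filter. Of these 12, HOXC5 and HOXD10 were called once the filter was dropped, and 4 had no count in any sample.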
